A study of Schizosaccharomyces pombe with 6 samples.

Results

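Tf2 elements are the full-length retrotransposons of laboratory fission yeast, and 13 of them, Tf2-1 to Tf2-13, are annotated in the RefSeq reference ASM294v3. Array probes were counted as members when they were centred inside an annotated Tf2 gene or within 300 bp of either end, which gave 87 of the 41251 chromosome probes. H3K9me2, dimethylated lysine 9 of histone H3, had 1 wild-type array and 1 array from pds5D cells, which lack pds5. Pds5 fused to GFP was mapped on 2 arrays of otherwise wild-type cells, 1 array of swi6D cells and 1 array of clr4D cells, which lack swi6 or clr4. Per the labels, all cultures were in log phase in rich medium (YEA) at 30 °C and were fixed with 3% paraformaldehyde. Cells for the Pds5 ChIP were held at 18 °C for 2 h first, and DMA was added to their fixative. No array of an untagged strain and no H3K9me2 array of clr4D cells was analysed here, so the background of either antibody over Tf2 was not measured.

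A Tf2 element makes a single polyprotein with Gag, protease, reverse transcriptase and integrase parts, which copies the element's RNA into DNA and inserts it elsewhere. The coding sequence lies between a pair of long terminal repeats (LTRs), which start and end the transcript, and recombination between them leaves a solitary LTR behind. In fission yeast, CENP-B homologues such as Abp1 bind Tf2 LTRs and keep the elements silent together with histone deacetylases and the HIRA histone chaperone. H3K9me2 is placed by the methyltransferase Clr4 and bound by the HP1 protein Swi6. Pds5 regulates cohesin, the ring that holds sister chromatids together.

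The 13 elements are close copies, and their sequence is shown because it decides how far a probe can tell them apart. Over the 78 pairs of elements, coding sequences were 99.5% to 100% identical, with a median of 99.9% and 13 pairs without any difference. The 100 coding bases in which Tf2-1 and Tf2-11 differ most hold 4 of their 16 differences and exist in 4 versions among the 13 elements. The stretch spans bases 598 to 697 of the coding sequence and is printed on the element's own strand, with the bases that vary in capitals. The version of Tf2-3 is shared by 6 elements and that of Tf2-1 by 5, while Tf2-10 and Tf2-11 each have their own.
Tf2-3 coding: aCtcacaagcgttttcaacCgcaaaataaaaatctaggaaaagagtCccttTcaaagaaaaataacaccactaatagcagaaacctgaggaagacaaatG
Tf2-1 coding: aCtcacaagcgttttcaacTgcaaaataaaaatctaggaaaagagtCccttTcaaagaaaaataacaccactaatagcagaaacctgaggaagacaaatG
Tf2-10 coding: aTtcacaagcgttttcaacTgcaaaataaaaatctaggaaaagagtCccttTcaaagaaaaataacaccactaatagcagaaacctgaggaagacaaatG
Tf2-11 coding: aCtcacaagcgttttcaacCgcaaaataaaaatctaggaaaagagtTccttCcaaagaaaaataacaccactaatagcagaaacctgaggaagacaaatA

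In the reference these stretches lie at chrI:2930509-2930608 on the minus strand, chrI:1466444-1466543 on the plus strand, chrII:1965987-1966086 on the plus strand and chrII:4415254-4415353 on the plus strand. A window of 60 bases in a Tf2 coding sequence occurs in the reference a median of 13 times, for each of the 13 elements. Windows that occur once made up 10.9% of the Tf2-11 coding sequence, 4.87% of that of Tf2-10 and 1.5% of that of Tf2-13, and none in the other 10. Most coding windows are thus shared by the copies of the family, so values of single elements may hold signal from other copies. How far they do was not tested.

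The LTR is shown because the members with the highest wild-type H3K9me2 lie in it as the tiles were placed. The commonest 5′ LTR has 349 bases and runs from position -515 to -167 relative to the coding start. It was identical in 6 of the 13 elements, Tf2-2 among them, and 6 others differed from it at 1 base. Tf2-11 stood apart, with a 5′ LTR of 298 bases, 20 mismatches and 55 gap bases against the commonest one. The first 100 bases of the Tf2-2 LTR (chrI:1568633-1568732, minus strand) and the bases of Tf2-11 that align to them (chrII:4414192-4414261, plus strand) follow on the element's strand, with unmatched bases in capitals.
Tf2-2 LTR: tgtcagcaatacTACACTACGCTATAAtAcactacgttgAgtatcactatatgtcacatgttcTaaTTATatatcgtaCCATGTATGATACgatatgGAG
Tf2-11 LTR: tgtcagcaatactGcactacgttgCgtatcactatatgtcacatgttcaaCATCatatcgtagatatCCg

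Windows of 60 bases from the commonest LTR occurred in the reference a median of 39 times and up to 64 times. They fell at 84 places, of which 24 lay within 700 bp of a full-length element and 3 within 100 kb of a chromosome end. LTR sequence is thus present at more places than the full-length elements.

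The genes of Tf2-1 to Tf2-8 lie on chromosome I, Tf2-9 to Tf2-11 on chromosome II and Tf2-12 and Tf2-13 on chromosome III. Tf2-1 (SPAC9.04) is at chrI:1465847-1469848 and Tf2-6 (SPAC27E2.08) at chrI:4022492-4026493, both on the plus strand. On the minus strand of the same chromosome lie Tf2-2 at chrI:1564101-1568217, Tf2-3 at chrI:2927204-2931205, Tf2-4 at chrI:3361547-3365548 and Tf2-5 at chrI:3996423-4000424. Tf2-7 at chrI:5191060-5195145 and Tf2-8 at chrI:5195711-5199712, also on the minus strand, stand in tandem and share the LTR between them. Tf2-9 is at chrII:1812748-1816749 on the minus strand, Tf2-10 at chrII:1965390-1969390 and Tf2-11 at chrII:4414657-4418658 on the plus strand. Tf2-12 at chrIII:778133-782134 and Tf2-13 at chrIII:2320320-2324320 are on the minus strand. Tf2-11 is nearest to a chromosome end, at 121 kb.

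The array has tile positions every 300 bp, but only 87 of 200 positions in the 13 windows hold a probe. Tf2-4 has 15 probes, Tf2-8 has 12, Tf2-5 and Tf2-12 have 10 each, and Tf2-3 has 8. Tf2-6 and Tf2-9 have 7 each, Tf2-1 has 5, Tf2-2 has 4, Tf2-7 and Tf2-13 have 3 each, Tf2-10 has 2 and Tf2-11 has 1. All 87 carry the name suffix m or Rm, which 436 chromosome probes carry, and none lacks a shared suffix. In the surroundings, from 1 to 5 kb outside an element, 5 of 319 probes carry one. Tiles with m or Rm fell on a repeated 60-base window of the reference in 75.5% of cases, against 0.216% of tiles without a shared suffix. Of the members, 73 lie in coding sequence, 11 in an LTR and 3 in between, by positions that are good to about 150 bp.

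Unless the extract is named, a value is the log2 ratio of ChIP to extract signal after subtracting its array's median. Between 98.4% and 99.98% of spots were well above background and none was saturated. Outlier spots, which were left out, numbered 1306 on the wild-type H3K9me2 array and 2 to 111 on the others. They took 4 members on the wild-type H3K9me2 array, 2 on the pds5D array and 4 values over the Pds5-GFP arrays. Extract signal was lost over each deleted gene on the array of its mutant, with median extract signals of -6.95 for pds5, -6.85 for swi6 and -6.55 for clr4 there, against -1.13 to 0.44 on the others.

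In ratios centred on the array median, H3K9me2 over the Tf2 elements stood above its surroundings on both arrays, which did not hold after loess. H3K9me2 in these centred ratios differed little between wild type and pds5D. In wild type the 10 elements with at least 3 measured probes had ratios from 0.33 at Tf2-5 to 0.70 at Tf2-1, and their median was 0.46. In pds5D they ran from 0.43 at Tf2-2 to 0.70 at Tf2-1, and their median was 0.53. The ranges of both arrays overlapped almost completely, and no element reached a ratio of 1, which 8.10% of 11737 measured genes reached in wild type.

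Tf2-5 changed most of the 10, from 0.33 in wild type to 0.45 in pds5D, while Tf2-6 read 0.44 on both arrays. Tf2-12 went from 0.46 to 0.54, Tf2-4 from 0.47 to 0.52, Tf2-8 from 0.43 to 0.49 and Tf2-13 from 0.51 to 0.57. Tf2-2 (0.38 and 0.43), Tf2-3 (0.62 and 0.65) and Tf2-9 (0.62 and 0.65) were nearer still, and Tf2-1 read 0.70 on both arrays. The 3 elements with fewer measured probes read 0.92 and 0.69 at Tf2-7, 0.83 and 0.54 at Tf2-10, and 0.40 and 0.41 at Tf2-11. Of these 3, Tf2-7 and Tf2-10 were lower in pds5D, over the probes measured on both arrays, which are 1 LTR and 1 coding probe of Tf2-7 and 1 LTR probe of Tf2-10. The coding probe of Tf2-10 was measured only in pds5D, at 1.02, and is not in these values.

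The median difference, pds5D minus wild type, was 0.05 over the 10 elements, against 0.09 over their surroundings and -0.02 over all 11737 genes. It was above 0 in 8 of 10 elements, in 7 of 10 surroundings and in 48.1% of all genes. The elements are close copies and not independent readings. With loess normalisation, which bends each array's ratios to its brightness, the median was -0.84 and all 10 elements were lower in pds5D, and with ratios scaled to equal deviation it was -0.06. No element met the size rule of a difference of 1 or more with 1 array at a ratio of 1, a rule that 2.50% of genes met upward and 0.179% downward. With 1 array per genotype there is no replicate check and no test.

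The probes 1 to 5 kb outside the elements had lower H3K9me2 ratios, with medians over the 10 elements of -0.16 in wild type and -0.18 in pds5D. Taken element by element, these surroundings were higher in pds5D in 7 of 10, with a median difference of 0.09 over the 10. Every one of the 10 elements lay above its own surroundings, by 0.52 at Tf2-9 to 1.13 at Tf2-1 in wild type (median 0.67) and by 0.26 at Tf2-9 to 1.27 at Tf2-1 in pds5D (median 0.66). After loess none of the 10 lay above its surroundings on either array, and the element ratios themselves were negative, with medians of -1.53 and -2.35. With normexp 9 of 10 lay above their surroundings on either array, by medians of 0.34 and 0.42, and the element ratios had medians of 0.11 in wild type, with 7 of 10 above 0, and 0.16 in pds5D, with 9 of 10 above 0. The single probe of Tf2-11 (0.40) was below its surroundings (0.86 in wild type and 1.24 in pds5D), which lie 121 kb from the right end of chromosome II.

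Pds5-GFP ratios centred on the array median lay above the surroundings over every Tf2 element and varied little from one element to the next. After loess most elements did not lie above their surroundings in wild type. Most coding windows are shared by the copies, so this likeness between elements need not hold for each copy. In wild type, 11 elements had at least 3 measured probes, and their ratios ran from 0.67 to 0.91 on the first array and from 0.68 to 0.91 on the second. The mean of both arrays was lowest at Tf2-2 (0.71) and highest at Tf2-9 (0.91), with a median of 0.74, and 12.6% of 11921 genes lay at or above the lowest of these (13.7% and 13.5% on the single arrays). The SD of the wild-type pair was 0.01 at Tf2-1 to 0.09 at Tf2-6, and the 8 lowest elements, between 0.71 and 0.75, did not differ beyond the largest of these SDs.

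Tf2-9 read 0.90 and 0.91 on the wild-type arrays, 1.02 in swi6D and 0.96 in clr4D. Tf2-12 read 0.83 and 0.86 in wild type, 0.94 in swi6D and 0.96 in clr4D. Tf2-4, the element with most probes, read 0.73 and 0.75 in wild type, 0.82 in swi6D and 0.87 in clr4D. In these 3 elements both mutant arrays lay above both wild-type arrays.

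Tf2-5 (0.71 and 0.76 in wild type, 0.84 in swi6D, 0.81 in clr4D) and Tf2-8 (0.70 and 0.73, 0.81, 0.81) had the same order, and so did Tf2-1 (0.73 and 0.74, 0.78, 0.78). Tf2-2 (0.67 and 0.75, 0.79, 0.80), Tf2-6 (0.67 and 0.79, 0.81, 0.84) and Tf2-13 (0.76 and 0.68, 0.78, 0.85) did too. At Tf2-3 (0.91 and 0.83, 0.91, 0.92) and Tf2-7 (0.76 and 0.74, 0.76, 0.81) the swi6D array lay between the wild-type arrays. The sparse Tf2-10 read 0.84 and 0.72 in wild type, 0.75 in swi6D and 0.97 in clr4D, and Tf2-11 read 0.84 and 0.89, 1.01 and 0.93.

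Pds5-GFP in swi6D lay above both wild-type arrays in 9 of the 11 elements, a position that 37.6% of 11921 genes had, and in clr4D in all 11, against 40.0% of genes. None lay below both in either mutant, where 34.3% and 34.4% of genes did. The elements are close copies read on the same arrays, so these counts are not of independent readings. The differences ran from 0.01 at Tf2-7 to 0.11 at Tf2-9 in swi6D (median 0.08) and from 0.05 at Tf2-1 to 0.13 at Tf2-4 in clr4D (median 0.09). Over all genes the medians were 0.01 for either mutant. The surroundings of the 11 elements had median ratios of -0.07 in the wild-type pair, 0.09 in swi6D and -0.09 in clr4D. Elements exceeded their surroundings by medians of 0.80, 0.78 and 0.91, so the median excess did not rise in swi6D. No element passed limma's test after Benjamini-Hochberg adjustment over all genes, which called 4.73% of them in swi6D (0.780% higher and 3.95% lower) and 5.08% in clr4D (1.11% higher and 3.97% lower). None of the 11 had an unadjusted p under 0.05, as 13.7% of genes had in swi6D and 14.4% in clr4D.

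By limma the lowest adjusted p was 0.80 in swi6D, at Tf2-9, and 0.68 in clr4D, at Tf2-4, with a standard error of 0.11 for each difference. Such p-values do not show that the arrays were alike. The direction turned for swi6D with normexp background correction (median -0.05) and for both mutants when the ChIP signal was taken alone (-0.05 in swi6D and -0.48 in clr4D). The clr4D median rose to 0.29 with normexp (range 0.25 to 0.37, lowest unadjusted p 0.025 by limma) and to 0.29 with loess (0.25 to 0.36, lowest unadjusted p 0.0075), and no element passed after adjustment under either. Both mutants are compared with the same wild-type pair.

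All 11 elements lay above their surroundings on all 4 Pds5-GFP arrays. The mean of the wild-type pair exceeded the surroundings by 0.30 at Tf2-13 to 1.29 at Tf2-8, with a median of 0.80. The medians were 0.78 in swi6D and 0.91 in clr4D. Tf2-8 stands out because its surroundings were low, at -0.57 in the wild-type pair, and Tf2-13 because they were high, at 0.42. After loess, 3 and 4 of 11 elements lay above their surroundings on the wild-type arrays, 3 in swi6D and 6 in clr4D. With normexp the element ratios had medians of 0.24 and 0.40 in wild type, 0.27 in swi6D and 0.65 in clr4D. Then 9 and 10 of 11 lay above their surroundings in wild type, by medians of 0.32 and 0.47, and 10 in each mutant, by 0.43 in swi6D and 0.67 in clr4D.

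Along the element, as the tiles were placed, wild-type H3K9me2 was higher at the LTR probes than at the coding probes and Pds5-GFP was lower. In wild type the 11 LTR probes had a median H3K9me2 ratio of 1.0, with a range of 0.31 to 1.60, while the coding probes had a median of 0.43 and a range of -0.00 to 0.74. Of the LTR probes 5 reached a ratio of 1, against 0 of 69 coding probes and 9.52% of all probes. For Pds5-GFP the LTR probes had a median of 0.50 ± 0.02 (SD, n = 2 wild-type arrays) and the coding probes 0.84 ± 0.03.

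The highest H3K9me2 value was at the 3′ LTR of Tf2-9, with 1.60 in wild type and 0.88 in pds5D. The 5′ LTR probe of Tf2-1 read 1.43 and 1.07, the 3′ LTR probe of Tf2-7 read 1.41 and 1.0, and the 5′ LTR probe of Tf2-8 read 1.23 and 1.02. The 3′ LTR probes of Tf2-13 (1.01 and 0.69), Tf2-3 (1.0 and 0.62), Tf2-10 (0.83 and 0.54) and Tf2-4 (0.72 and 0.51) came next. All of these were lower in pds5D than in wild type.

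The lowest LTR probe, that of Tf2-5, read 0.31 and 0.30, and those of Tf2-12 (0.40 and 0.52) and Tf2-2 (0.50 and 0.58) were higher in pds5D. Among the 3′ LTR members these 3 lay nearest the coding sequence as placed. They were 4084 to 4167 bases from the coding start, and the others 4198 to 4299. Positions are good to about 150 bp, and whether these 3 probes lie in the LTR was not tested. Together, 9 of 11 LTR probes were lower in pds5D, with a median difference of -0.28, as were 24 of 69 coding probes, with a median difference of 0.07. Over all probes 49.6% were lower in pds5D. Probe sequences were not used here, so how far the LTR probes overlap in sequence was not tested.

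Within elements, LTR probes lay above the mean of the coding probes in 8 of 10 elements in wild type, with a median excess of 0.60, and in 7 of 10 in pds5D, with a median of 0.20. This excess depended on the placement of the tiles. With tiles moved by 150 bp towards lower coordinates, 5 elements kept an LTR probe, and the excess was present in 2 of 5 in wild type (median -0.07) and 1 of 5 in pds5D (-0.02). Towards higher coordinates it was present in 4 of 5 (0.75) and 3 of 5 (0.19). As placed, the excess was smaller in pds5D in 8 of 10 elements, by a median of -0.33, most at Tf2-9 with -0.87. This change kept its sign after loess (-0.20), at equal deviation (-0.48), with normexp (-0.33) and in the ChIP signal alone (-0.35). With the tiles moved it was 0.02 towards lower and -0.49 towards higher coordinates. The extract signal of the LTR probes lay below that of the coding probes, with medians of -0.58 for wild type and -0.50 for pds5D, and its part in the difference was not tested.

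For Pds5-GFP the LTR probes lay below the coding mean in 11 of 11 elements on each of the 4 arrays. The median differences were -0.36 and -0.35 in wild type, -0.56 in swi6D and -0.41 in clr4D. All 11 kept this order under loess, normexp and equal deviation, and in the ChIP signal alone 9 and 10 did in wild type, 8 in swi6D and 8 in clr4D. The extract signal of LTR minus coding probes went both ways among the elements. It ran from -0.67 to 0.49 and from -1.12 to 0.85 on the wild-type arrays, from -0.92 to 0.74 in swi6D and from -0.35 to 0.96 in clr4D, with medians of -0.08, -0.05, -0.01 and 0.31. Its part in the Pds5-GFP difference was not tested.

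Most coding probes read higher in either mutant than in both wild-type arrays, while LTR probes were mostly lower in swi6D and divided in clr4D. In swi6D, 49 of 69 coding probes lay above both wild-type arrays, against 36.7% of all probes, while 8 of 11 LTR probes lay below both, against 32.7%, and 3 above both. In clr4D, 48 of 69 coding probes lay above both, against 39.0%, and 6 of 11 LTR probes lay below both, against 33.4%, and the other 5 above both. These probes lie in close copies and are not independent readings. The median difference of the 9 probes in a 3′ LTR was 0.06 in clr4D, and both 5′ LTR probes were below both wild-type arrays. The 5′ LTR probe of Tf2-1 read 0.49 and 0.43 in wild type, 0.30 in swi6D and 0.27 in clr4D.

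The 5′ LTR probe of Tf2-8 read 0.40 and 0.41, 0.28 and 0.26, and the 3′ LTR probe of Tf2-9 read 0.49 and 0.51, 0.47 and 0.32. In these 3 probes both mutants lay below both wild-type arrays, and they did so too at the 3′ LTR probes of Tf2-3, Tf2-7 and Tf2-10. The LTR probe of Tf2-5 went the other way, with 0.41 and 0.62 in wild type, 0.67 in swi6D and 0.75 in clr4D. So did those of Tf2-2 (0.57 and 0.60, 0.63, 0.65) and Tf2-12 (0.42 and 0.50, 0.56, 0.62). These are the same 3 probes that lay nearest the coding sequence, and whether they lie in the LTR was not tested. At Tf2-4 and Tf2-13 the LTR probe lay below both wild-type arrays in swi6D and above both in clr4D.

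The difference between LTR and coding probes was larger than on both wild-type arrays in 8 of 11 elements in swi6D (median change -0.17) and in 8 of 11 in clr4D (-0.12). In the ChIP signal alone these medians turned to 0.02 and 0.25. With tiles moved by 150 bp towards lower coordinates they were -0.04 in swi6D (2 of 6 elements beyond both wild-type arrays) and -0.04 in clr4D (3 of 6). Towards higher coordinates they were -0.18 in either mutant (5 of 5). With 1 array of each mutant, this contrast was not tested.

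The extract itself was far brighter over Tf2 than over its surroundings. The Cy3 signal of the elements lay above the array median by a median of 3.93 on the wild-type H3K9me2 array and 3.99 on the pds5D array. On the Pds5-GFP arrays it lay 3.06 and 3.15 above in wild type, 2.96 in swi6D and 2.50 in clr4D. Against their surroundings, elements were brighter by a median of 13.6-fold and 15.0-fold on the H3K9me2 arrays, 8.30-fold and 8.05-fold in wild type for Pds5-GFP, 7.84-fold in swi6D and 5.84-fold in clr4D. The reference holds 13 copies of most coding windows, and the copy number of the strains used was not measured apart from this signal.

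The clr4D extract was the dimmest over every one of the 13 elements among the Pds5-GFP arrays. Tf2-12 read 3.06 and 3.08 in wild type, 2.86 in swi6D and 2.40 in clr4D. Tf2-9, the brightest, read 3.58 and 3.87 in wild type, 3.71 in swi6D and 3.19 in clr4D. The difference, clr4D minus wild type, ran from -0.67 at Tf2-12 to -0.43 at Tf2-7 over 11 elements, with a median of -0.57, against -0.01 over all genes.

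In clr4D all 11 elements, which are not independent readings, lay below both wild-type arrays, against 34.7% of genes. By limma 10 of them had an unadjusted p under 0.05, as 2.78% of all genes had with a lower value, and none passed after adjustment over 11921 genes, the lowest adjusted p being 0.59, where 0.0168% of genes passed. At single probes the clr4D extract was lower than the wild-type mean at 85 of 85 Tf2 probes, with a median of -0.59. Among the 346 other m or Rm probes 56.1% were lower, with a median of -0.11, and among the 400 brightest probes without a shared suffix 60.3%, with a median of -0.07. Both sets were dimmer in wild type, with median extract signals of 1.44 and 1.93 against 3.22 for the Tf2 probes. Probes of like brightness were not compared.

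In swi6D the median extract difference was -0.12 (range -0.23 to -0.02), and -0.04 with 3 of 11 elements higher when an element's value was the median of its probes. With the mean of probes, 7 of 11 elements lay below both wild-type arrays, against 29.6% of genes. None had an unadjusted or adjusted p under 0.05 by limma, where 0.00839% of genes passed after adjustment and 0.134% had an unadjusted p under 0.05 with a lower value. The clr4D array stood alone on its slide, so slide and genotype cannot be told apart there. The swi6D array shared a slide with the second wild-type array, and against that array alone its Pds5-GFP ratios differed by a median of 0.08.

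Other repeated families had other levels on the same arrays. The 25 wtf genes, a family of spore killers, held 124 probes with median H3K9me2 ratios of -0.03 in wild type and -0.13 in pds5D and a Pds5-GFP median of 0.44 ± 0.01 in wild type. The 201 probes of 211 annotated LTRs over 1 kb from a full-length element had H3K9me2 medians of 0.29 and 0.31 and a Pds5-GFP median of 0.19 ± 0.07. Of these, the 166 probes over 100 kb from a chromosome end read 0.19 and 0.16, against 1.17 and 1.77 for the 35 nearer ones.

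The LTR probes of the Tf2 elements, with 1.0 in wild type and 0.62 in pds5D, lay above the LTRs away from chromosome ends on both arrays. After loess they lay below them, with -0.86 and -1.90 against -0.03 and -0.04. The wild-type Pds5-GFP medians after loess were -0.18 for the Tf2 probes, -0.14 for wtf genes and 0.07 for the 201 other LTR probes. Of the 201 probes, 86 carry a shared suffix, and the extract of the 201 lay below the array median (-0.76 and -0.70). These medians were set side by side with no test.

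Of 18 genes known to act on Tf2 elements, all 18 were measured. They had a median Pds5-GFP ratio of 0.11 in wild type, and none met the H3K9me2 size rule, which 2.50% of all genes met upward and 0.179% downward. By limma, sre1 fell in swi6D (from 0.63 and 0.77 in wild type to 0.35, difference -0.35 ± 0.11 SE, adjusted p = 0.037), the only one of the 18 called, where 4.73% of all genes were. An unadjusted p under 0.05 was found for 2 of the 18 in swi6D, against 13.7% of all genes. sre1 encodes the sterol-regulated transcription factor that activates Tf2 transcription when oxygen is low. The sre1 gene itself had an H3K9me2 ratio of 1.54 in wild type, the highest of the 18, and 1.63 in pds5D. None passed in clr4D, where 5.08% of all genes did, and 1 had an unadjusted p under 0.05, against 14.4% of all genes.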

How the data were processed

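The 6 two-colour Agilent tiling arrays comprised 1 per group except 2 for wild-type Pds5-GFP. Per the file headers, spots were read by Agilent Feature Extraction, version 12.0.3.1. The deposited processed signals (intensity) were, per the file headers, background-subtracted and dye-normalised by the authors' scanner software. The LogRatio column is a log10 ratio per the file headers and was not used further. The deposited value table holds log2 ratios (ChIP over extract, not centred, within 5e-05 of the scanner's processed signals at 41251 positions), with column medians of -0.15 to -0.05. ChIP DNA carried Cy5 and extract DNA Cy3, per the labels, always in this orientation. Sonicated fragments were 500 to 1000 bp long, per the labels. The aligner of the probes and the array's genome build are not given in the sources used here.

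Control and outlier spots were left out, log2 ratios were centred on the array median, and no loess was applied. The authors' tile positions were moved to reference positions in 6 blocks by fixed shifts. Tiles with suffix m or Rm fell on repeated 60-base windows best at shifts within 100 bp of these. An element's value is the mean of its probes measured on all arrays of the assay, with at least 3 required. LTRs were found with blastn 2.17.0. Genes with 300 bp flanks were fitted with limma 3.58.1 in R 4.3.3 on 4 arrays in 3 groups, with 1 residual degree of freedom. For the ratios, limma pooled the variance fully over genes, so every gene had the same standard error of 0.11. Each lone mutant is assumed to vary like the wild-type pair, whose cultures the labels do not describe, so p-values reflect only how far these arrays differ, which may be technical. P-values were adjusted by Benjamini-Hochberg over all genes with a threshold of 0.05. The fit was also run on simulated data that gave every array the spread of the wild-type pair. That run could not test the assumption about the mutants. All Tf2 genes are named, and genes of the list of 18 only where a test or size rule was passed. Members and lists were chosen with earlier results of these data known. The number of arrays limits the precision.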

Additional observations from a re-analysis of the deposited data

How the results depend on the processing

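No pairing by replicate was possible because only the wild-type Pds5-GFP arrays carry replicate numbers. By slide, both H3K9me2 arrays lay together, while the wild-type Pds5-GFP arrays lay on different slides. Every member carries a shared suffix, so the alternative without such probes gave no value, and clr4D shares its slide with no wild-type array. The H3K9me2 difference (median 0.05 over elements) turned to -0.84 with loess and -0.060 at equal deviation, and moved to 0.14 in the ChIP signal alone, 0.084 without flanks and 0.028 with at least 1 probe. The Pds5-GFP difference in swi6D turned to -0.047 with normexp and -0.053 in the ChIP signal alone, and that in clr4D to -0.48 in the ChIP signal alone, while it rose to 0.29 with normexp and 0.29 with loess. Without either wild-type replicate these medians were 0.08 to 0.10 in swi6D and 0.08 to 0.10 in clr4D, and extract differences -0.19 to -0.085 and -0.62 to -0.51. No alternative brought an element past limma's threshold. After loess, elements above their surroundings numbered 0 of 10 on either H3K9me2 array, 3 and 4 of 11 in wild type for Pds5-GFP, 3 in swi6D and 6 in clr4D. Elements with a ratio above 0 then numbered 0 on the H3K9me2 arrays, 0 and 0 on the wild-type Pds5-GFP arrays and 1 in swi6D, while in clr4D all 11 stayed above 0 (median 0.12). The cause was not tested.

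Alternatives for LTR against coding probes, for ratios above 0 and for protein-coding genes only were chosen after seeing the data. H3K9me2 LTR probes lay above coding probes in 3 of 10 pds5D elements in the ChIP signal alone. The wild-type excess was present in 2 of 5 elements with tiles moved by 150 bp towards lower coordinates. The change of this difference in pds5D turned to 0.020 under the same move, where 5 elements kept an LTR probe. For Pds5-GFP it turned to 0.019 in swi6D and 0.25 in clr4D in the ChIP signal alone.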
